A study of Homo sapiens with 18 samples.

Results

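The HOX genes are the homeobox transcription factors of the HOXA, HOXB, HOXC and HOXD clusters. They were chosen by symbol alone from the deposited expression table, the word HOX followed by a cluster letter and a number. The table held 35 such genes among 36576, and RefSeq lists 39. The other 4, HOXD1, HOXD4, HOXD11 and HOXD12, had no levels to analyse, and only their promoter windows were used. The 35 genes divide into 11 of HOXA on chromosome 7, 10 of HOXB on chromosome 17, 9 of HOXC on chromosome 12 and 5 of HOXD on chromosome 2.

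HOX proteins bind DNA through the homeodomain, usually together with PBX and MEIS cofactors, and give cells their position along the body axis. Genes of the same number in different clusters are paralogs, numbered from 1 at the end active in anterior tissue to 13 at the posterior end. Polycomb complexes hold the clusters silent, Trithorax complexes keep them active, and adult and cancer cells often retain the HOX pattern of the tissue they came from.

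The cells were labelled A549, a line from a lung adenocarcinoma. A first group was exposed for 24 h to BPQD at 10 mg/L, a second for 24 h to TiO2 (titanium dioxide) at 100 mg/L, and a control group was untreated. Each of the 3 groups had 3 input RNA libraries and 3 libraries from immunoprecipitation of RNA carrying N6-methyladenosine (m6A), 18 in all. The deposited files gave levels for the 9 input libraries and, for m6A, a table of peaks for each exposure against the control. The labels name no separate culture for each library of a group. The p-values therefore cover the spread among these 9 libraries alone, and that spread may be technical. Both exposures were set against the same 3 control libraries, and the 2 materials were given at different doses.

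The levels are FPKM, fragments scaled for transcript length and for the fragments mapped in the library, and sum to 212891 to 222818 per library. They carry no read counts, so the depth behind a level is unknown. Libraries of the same group correlated at 0.98 to 0.983 over genes, and libraries of different groups at 0.966 to 0.975. Markers were mixed. The lung factor NKX2-1 and the surfactant genes SFTPB, SFTPA1 and SFTPC reached at most 0.0970, 0.0336, 0.0434 and 0.144 FPKM. ABCA3, also on the lung list, stood at 7.75 to 11.9 FPKM, and NAPSA had no values. Several A549 markers went against the label. CDKN2A, which is deleted in A549, stood at 19.3 to 27.4 FPKM, and AKR1B10, AKR1C1 and ALDH1A1 at no more than 0.998, 1.14 and 0.116 FPKM. The keratins KRT8 and KRT18 were at 218 to 366 and 403 to 582 FPKM, while the epithelial cadherin CDH1 was at 0.242 to 0.409 FPKM. The levels below therefore describe the cells labelled A549, whose identity was not tested further.

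Marker levels also differed between groups. The 5 epithelial markers summed to 852 to 871 FPKM in BPQD libraries, 952 to 1046 FPKM in TiO2 libraries and 1151 to 1239 FPKM in control libraries. The 5 markers of other cells were PTPRC, PECAM1, CDH5, COL1A1 and PDGFRB. They summed to 4.84 to 5.26, 5.64 to 7.76 and 9.16 to 9.92 FPKM in BPQD, TiO2 and control libraries. The leukocyte gene PTPRC and PECAM1 reached at most 0.0346 and 0.186 FPKM. CDH5, COL1A1 and PDGFRB stood at 1.14 to 3.73, 1.52 to 3.39 and 1.61 to 3.29 FPKM. The part of these marker differences in the HOX results was not tested. In bulk RNA, fewer cells of a type and less RNA per cell cannot be told apart.

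The sequences below come from HOXC and HOXA loci that had a RefSeq promoter window, which HOXC8, HOXC9, HOXC11, HOXC13 and HOXB7 did not. RefSeq promoter windows run from 250 bases before to 50 bases after a transcript's start, and 20 HOX symbols had one, 26 windows in all. Apart from the shared HOXC4 and HOXC5 window and that of HOXB1, all belong to HOXA or HOXD genes. Those of HOXD1, HOXD4, HOXD11 and HOXD12 are among them. Those of HOXC4 and HOXC5 are the same 300 bases, chr12:54016638-54016937 on the plus strand of GRCh38, upstream of HOXC6 and HOXC5 peaks described below. The only m6A peak that overlaps this window is the 48566-base peak assigned to HOXC8, lower at -0.22 in both of the authors' deposited tables. The HOXA11 window, chr7:27185183-27185482 on the minus strand, holds the 5′ end of an m6A peak listed for both exposures. Capitals mark CG pairs, the sites of DNA methylation.
HOXC4 and HOXC5 promoter: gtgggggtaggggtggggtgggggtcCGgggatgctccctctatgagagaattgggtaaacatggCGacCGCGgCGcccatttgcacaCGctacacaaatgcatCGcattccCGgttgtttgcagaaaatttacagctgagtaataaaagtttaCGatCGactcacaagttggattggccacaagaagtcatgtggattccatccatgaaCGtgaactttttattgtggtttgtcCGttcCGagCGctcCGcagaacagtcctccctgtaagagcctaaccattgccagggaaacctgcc
HOXA11 promoter: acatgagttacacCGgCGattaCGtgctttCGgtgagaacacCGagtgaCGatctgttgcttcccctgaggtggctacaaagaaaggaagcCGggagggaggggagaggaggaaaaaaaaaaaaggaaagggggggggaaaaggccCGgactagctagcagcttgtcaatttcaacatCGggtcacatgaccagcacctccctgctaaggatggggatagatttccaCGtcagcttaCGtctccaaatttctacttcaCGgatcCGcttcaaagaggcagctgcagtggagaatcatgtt

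The shared HOXC4 and HOXC5 window held 15 CG pairs and the HOXA11 window 13, against a median of 22.5 over the 26 HOX windows and 14 over all 34943 windows. GC content did not set the HOX windows apart in the same way, with a median of 58.0% against 58.7% for all windows. The CCAAT motif, read on both strands, was in 17 of the 26 HOX windows, the shared HOXC4 and HOXC5 window among them, and in 34.6% of all windows. TATAAA was in 5 of the 26 and in 11.6% of all windows. TGATTNAT, a form of the PBX and HOX recognition sequence, was in 2 of the 26 and in 2.8% of all windows, and in neither window printed here. These are matches of letters and not mapped binding sites.

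The clusters also carry microRNA genes, shown for their shared seed (bases 2 to 8, in capitals). miR-196, which in the mouse directs cleavage of Hoxb8 RNA, is encoded at chr12:53991762-53991783 between HOXC10 and HOXC9. It is encoded again on chromosome 17 within the HOXB7 gene model, and as miR-196b at chr7:27169528-27169549. miR-615 lies at chr12:54034010-54034031 inside HOXC5, and miR-10a at chr17:48579904-48579926.
hsa-miR-196a-5p: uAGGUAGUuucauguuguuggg
hsa-miR-196b-5p: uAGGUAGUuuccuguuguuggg
hsa-miR-615-3p: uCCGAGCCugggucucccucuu
hsa-miR-10a-5p: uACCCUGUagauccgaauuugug

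The first 2 of these share the seed AGGUAGU. In the input libraries the host loci were low. MIR196A1 had 0.562, 1.42 and 1.11 FPKM in BPQD libraries, 1.18, 0.416 and 0.626 FPKM in TiO2 libraries and 1.36, 0.683 and 0.753 FPKM in control libraries. MIR196A2, MIR196B and MIR615 stayed at or under 0.246, 0.205 and 0.148 FPKM in the 9 libraries. These are values of the precursor loci and say nothing of the mature microRNAs.

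The HOX pattern of the cells was posterior and led by HOXC. Of the 35 genes, 19 had a mean of at least 1 FPKM over the 9 libraries and were tested, which is 54.3% of them, against 33.4% of all genes in the table. They were 7 of 11 HOXA, 5 of 10 HOXB, 7 of 9 HOXC and none of the 5 HOXD genes. The other 16 lay below the limit, with means down to 0.00159 FPKM. HOXA9, at 1.66 FPKM, lay just inside it.

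HOXC10 was the highest HOX gene, with 33.6, 32.8 and 38.0 FPKM in BPQD libraries, 34.6, 29.7 and 33.0 FPKM in TiO2 libraries and 32.0, 34.8 and 36.5 FPKM in control libraries. It exceeded 96.9% of all genes in the table. The next by mean were HOXC13, HOXC9 and HOXA11. HOXA11 led its cluster at a mean of 10.4 FPKM over the 9 libraries and HOXB7 led HOXB at 6.90 FPKM.

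The HOXD genes were close to 0. HOXD9, the highest of them, had 0.177, 0.0418 and 0.123 FPKM in BPQD libraries, 0.0729, 0.176 and 0.153 FPKM in TiO2 libraries and 0.0910, 0.250 and 0.0423 FPKM in control libraries. HOXC12 also stood out within its cluster, at 0.0240 to 0.0588 FPKM between neighbours at 4.74 FPKM or more. HOXB1 was listed at 0 in 8 of the 9 libraries.

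**Figure D1:**
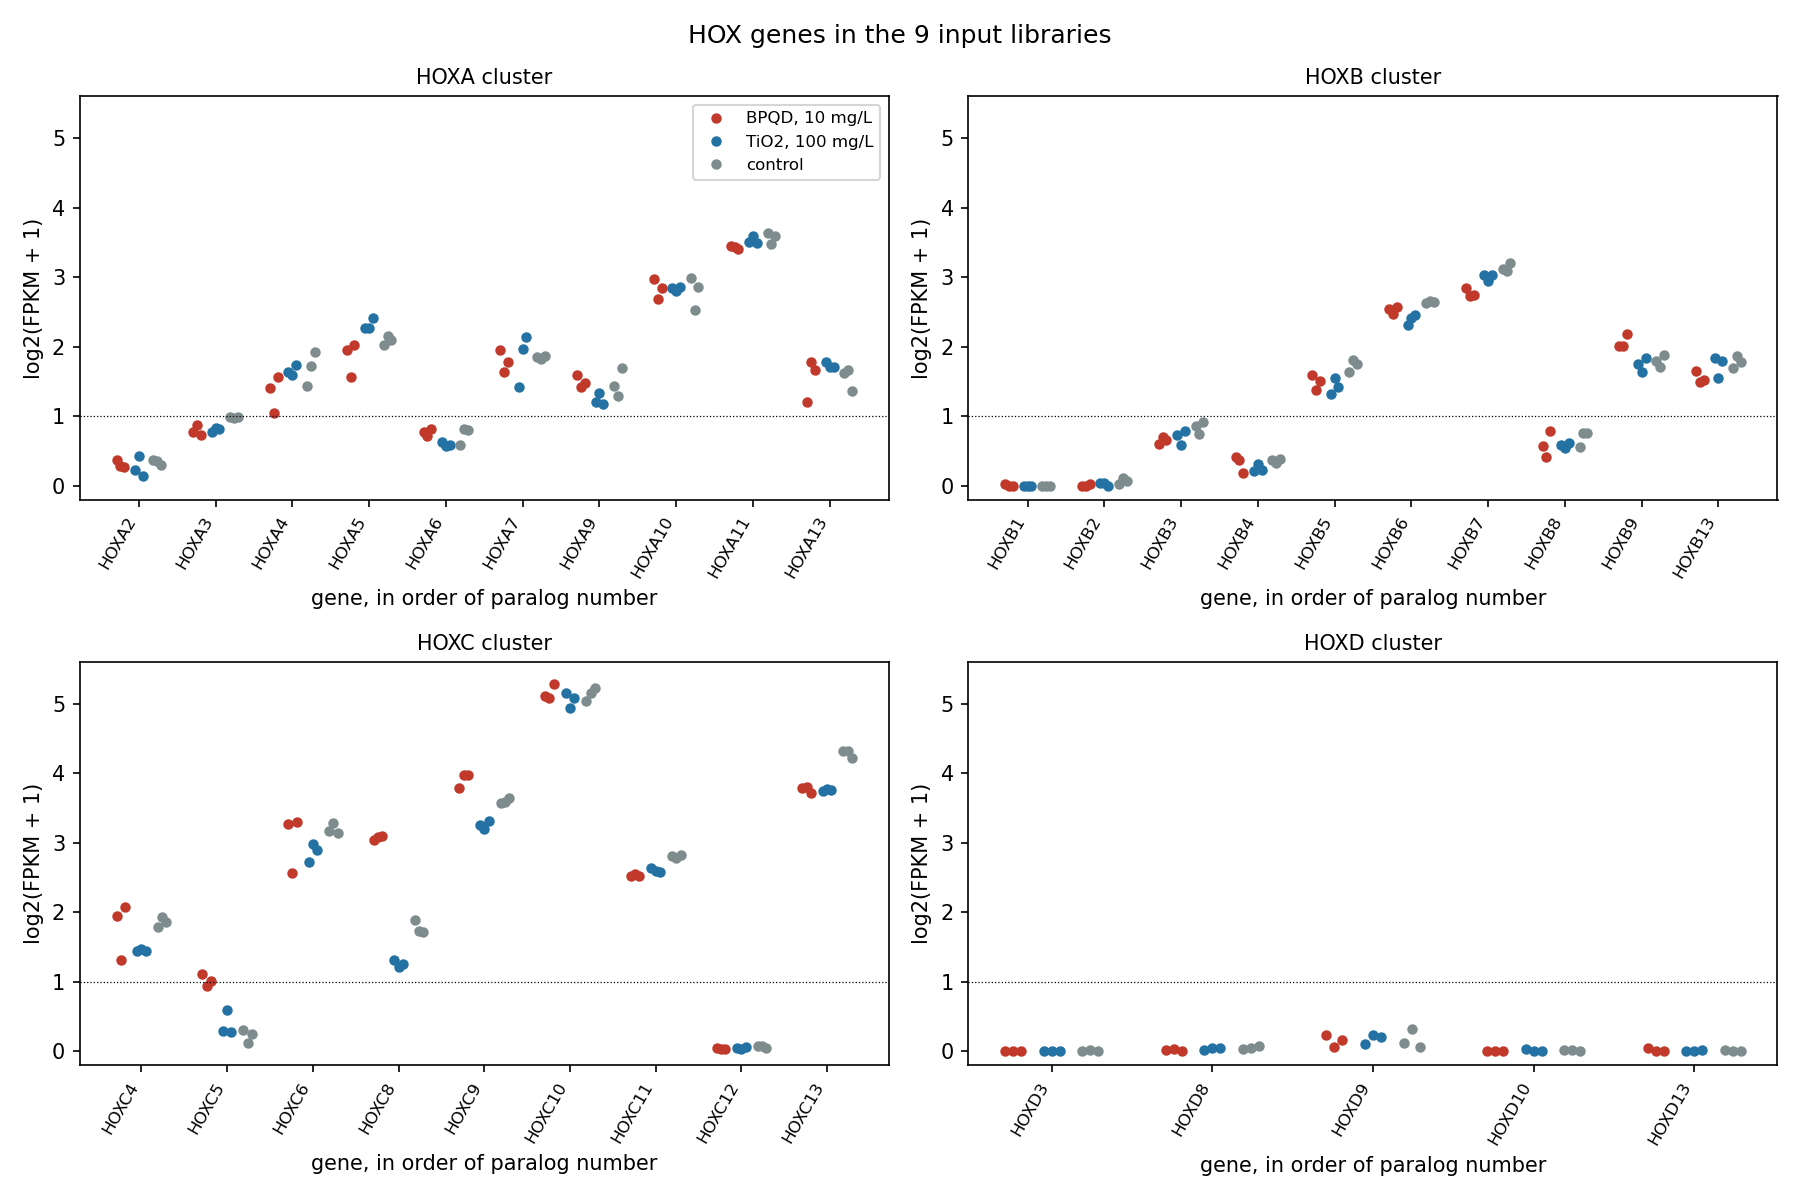
Levels of HOX genes in the 9 input libraries on the log2(FPKM + 1) scale, 1 panel per cluster, genes in order of paralog number, 1 point per library (red BPQD, blue TiO2, grey control). The dotted line marks 1 FPKM; HOXC10 lies highest, the 5 HOXD genes lie near 0, and the BPQD points of HOXC8 stand above those of the other groups.

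Summed over the cluster, the 9 HOXC genes came to 84.2, 80.1 and 90.3 FPKM in BPQD libraries, 69.9, 66.2 and 69.3 FPKM in TiO2 libraries and 81.5, 84.8 and 84.7 FPKM in control libraries. TiO2 libraries were thus lower than both other groups without overlap, at 0.818 times the control mean. The 10 HOXB genes summed to 19.5, 17.9 and 19.4 FPKM in BPQD libraries, 18.9, 18.3 and 19.8 FPKM in TiO2 libraries and 21.3, 21.9 and 23.0 FPKM in control libraries. Here both exposed groups lay below the control without overlap, at 0.858 and 0.861 times its mean for BPQD and TiO2. The HOXA genes summed to 29.9, 26.8 and 29.7 FPKM in BPQD libraries, 30.5, 32.4 and 32.6 FPKM in TiO2 libraries and 32.3, 30.0 and 32.7 FPKM in control libraries. BPQD libraries were the lowest of the 3 groups for HOXA, although the nearest values, 29.9 and 30.0 FPKM, almost met. No test was run on these sums.

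By paralog number, genes 9 to 13 held 68.9% ± 2.47 of the summed HOX FPKM in BPQD libraries, 70.2% ± 1.70 in TiO2 libraries and 69.7% ± 0.688 in control libraries (SD, n = 3 each). These shares differed by less than their spread. Genes 1 to 3 summed to 2.27 ± 0.0802 FPKM in BPQD libraries, 2.77 ± 0.0736 FPKM in TiO2 libraries and 3.13 ± 0.0626 FPKM in control libraries (SD, n = 3 each), and the 3 groups did not overlap.

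After BPQD, 8 of the 19 tested HOX genes changed, 3 higher and 5 lower, by limma on log2(FPKM + 1) with Benjamini-Hochberg adjusted p under 0.05. That scale understates the change of low genes. Over all 12224 genes tested, 44.0% passed in this comparison, 20.6% higher and 23.4% lower, so the HOX share of calls was close to the background. HOXC8, HOXC9 and HOXB9 rose, and HOXC13, HOXC11, HOXB7, HOXB5 and HOXA11 fell. The median log2 fold change of the 19 was -0.11, against -0.01 over all genes, and the median size of change was 0.22 against 0.17. With levels rescaled to sum to the same total (TPM), the split was 3 higher and 3 lower, and over all genes it moved to 3164 higher and 2263 lower, against 2524 and 2860 in FPKM.

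After TiO2, 6 of the 19 changed, all lower: HOXC8, HOXC9, HOXC11, HOXC13, HOXB5 and HOXB6. At an unadjusted p under 0.05 the limma counts were 0 higher and 7 lower. Over all genes tested 37.7% passed, 20.5% lower and 17.3% higher, so 31.6% of HOX genes were called, all lower, a share under the background in either direction and above it for lower calls. The median log2 fold change was -0.14 for the HOX genes and -0.02 for all genes, and the median size 0.20 against 0.15. Set directly against TiO2, BPQD changed 6 of the 19, with HOXC8, HOXC9, HOXB9 and HOXB6 higher and HOXB7 and HOXA5 lower. In that comparison 37.6% of all genes passed, so again the count lay near the background. The groups did not overlap for 10, 11 and 10 of the 19 genes in these 3 comparisons, where 55.6%, 51.7% and 51.1% of all genes did not.

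**Figure D2:**
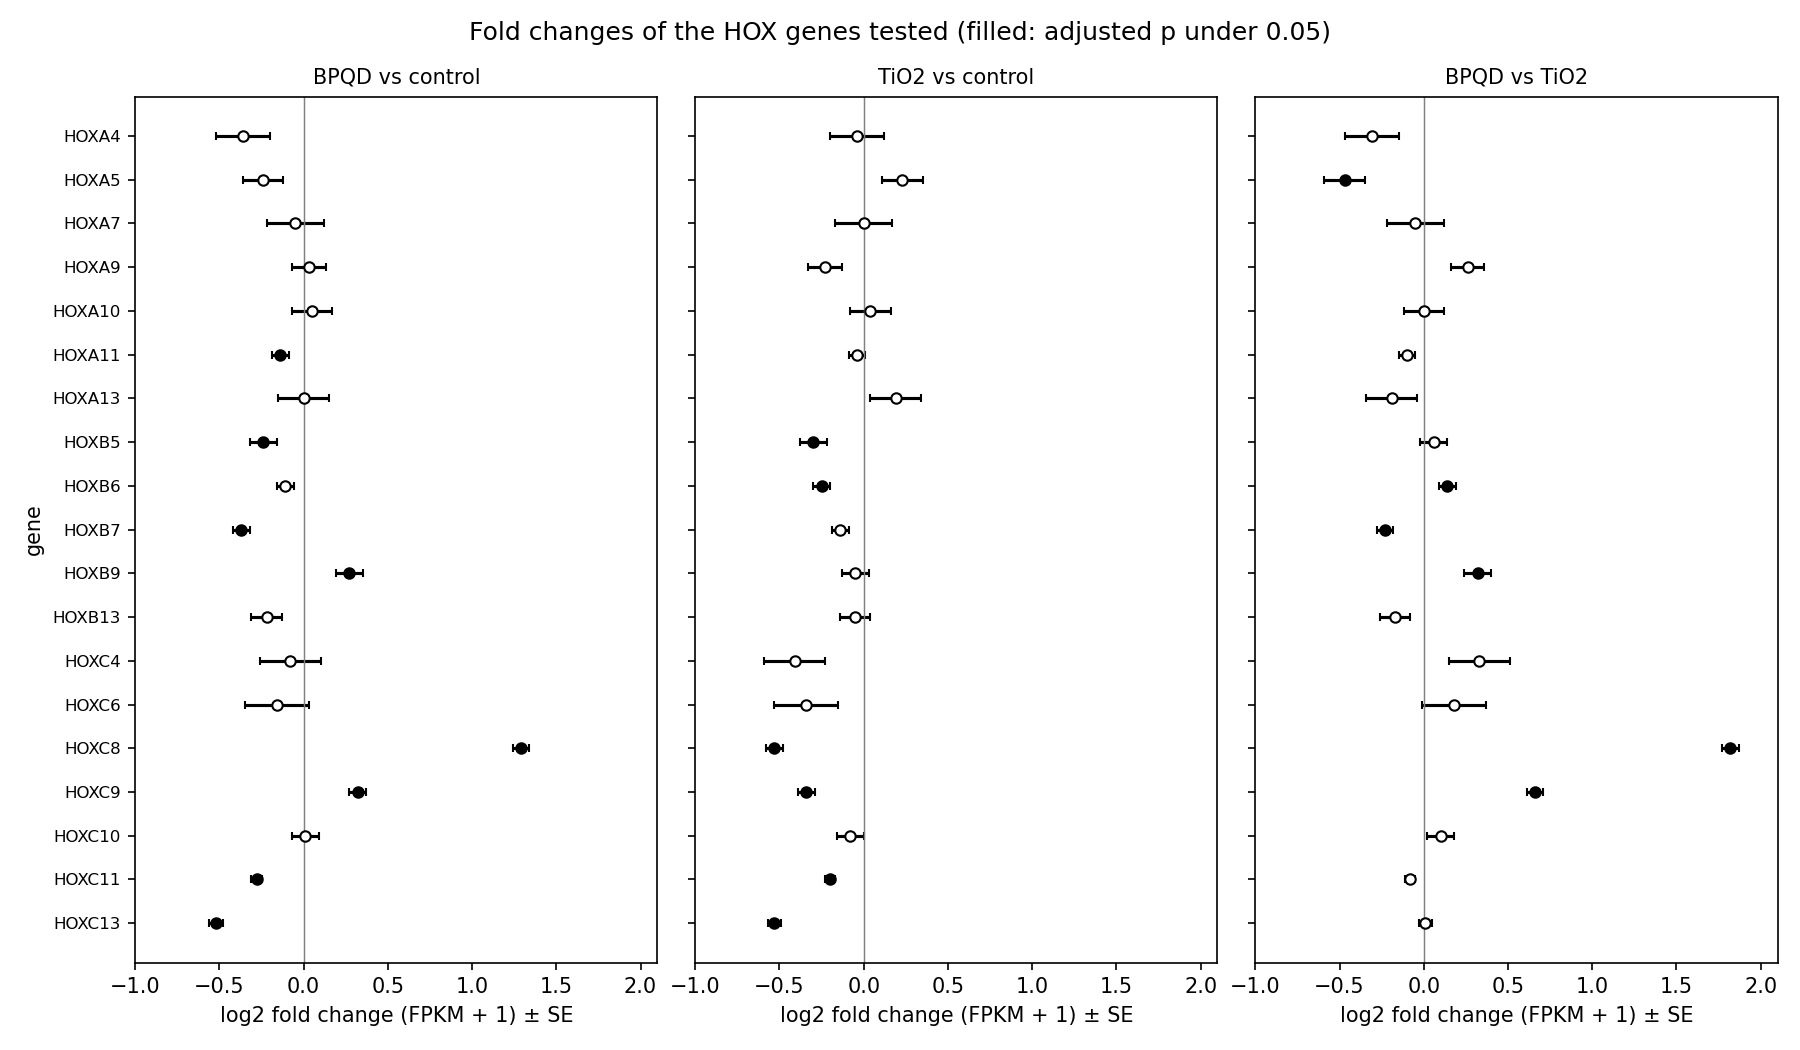
Log2 fold changes on the log2(FPKM + 1) scale with standard errors for the 19 HOX genes tested, 1 panel per comparison (limma, 9 libraries), filled points for adjusted p under 0.05. HOXC8 lies farthest from 0, at 1.29, -0.53 and 1.82 in the 3 panels.

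Within HOXC, HOXC8 and HOXC9 were highest in BPQD and lowest in TiO2 libraries, while HOXC11 and HOXC13, at the posterior end, were lower in both than in the control. HOXC8 (ENSG00000037965, chr12:54008985-54012769, plus strand), which specifies thoracic identity, had 7.27, 7.46 and 7.57 FPKM in BPQD libraries, 1.49, 1.31 and 1.38 FPKM in TiO2 libraries and 2.72, 2.34 and 2.30 FPKM in control libraries. The 3 groups were far apart, with BPQD on top and TiO2 at the bottom. BPQD libraries were at 3.03 times the control mean, a log2 fold change of 1.29 ± 0.05 (SE; limma, adjusted p = 5.67e-06). TiO2 libraries were at 0.568 times the control mean, -0.53 ± 0.05 (SE; limma, adjusted p = 0.000286). BPQD against TiO2 gave 1.82 ± 0.05 (SE; limma, adjusted p = 1.78e-06). Ranked by size of change, HOXC8 was number 19 among the 2524 genes that rose after BPQD and number 6 among the 2323 genes higher in BPQD than in TiO2.

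HOXC9 (ENSG00000180806, chr12:53994895-54003337), the neighbour toward the posterior end, followed the same order at a smaller size. It had 12.9, 14.7 and 14.7 FPKM in BPQD libraries, 8.58, 8.21 and 8.92 FPKM in TiO2 libraries and 10.9, 11.0 and 11.5 FPKM in control libraries. No library of one group reached the range of another. HOXC9 rose after BPQD by 0.32 ± 0.05 and fell by 0.34 ± 0.05 after TiO2 on the log2 scale (SE; limma, adjusted p = 0.00228 and 0.00194), and BPQD stood 0.66 ± 0.05 above TiO2 (SE; limma, adjusted p = 8.39e-05).

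HOXC5 (ENSG00000172789, chr12:54032853-54035358) lay below the 1 FPKM limit. Its levels were 1.16, 0.918 and 1.01 FPKM in BPQD libraries, 0.232, 0.515 and 0.217 FPKM in TiO2 libraries and 0.236, 0.0852 and 0.189 FPKM in control libraries. BPQD libraries were above all 6 others. Its mean over the 9 libraries, 0.507 FPKM, reaches a lower limit of 0.5 FPKM only through the BPQD libraries, so no test is given for it.

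At the posterior end, HOXC13 (ENSG00000123364, chr12:53938831-53946544), a regulator of hair keratin genes, had 12.9, 13.0 and 12.1 FPKM in BPQD libraries, 12.4, 12.7 and 12.5 FPKM in TiO2 libraries and 19.0, 19.1 and 17.7 FPKM in control libraries. Both exposures lay below the control by about the same amount. The fall was 0.52 ± 0.04 after BPQD and 0.53 ± 0.04 after TiO2 on the log2 scale (SE; limma, adjusted p = 4.57e-05 and 5.88e-05). BPQD minus TiO2 was 0.01 ± 0.04 (SE; limma, adjusted p = 0.845).

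HOXC11 (ENSG00000123388, chr12:53973126-53977643) had 4.74, 4.85 and 4.77 FPKM in BPQD libraries, 5.23, 5.07 and 5.01 FPKM in TiO2 libraries and 6.05, 5.86 and 6.10 FPKM in control libraries. It fell by 0.28 ± 0.03 after BPQD and by 0.20 ± 0.03 after TiO2 on the log2 scale (SE; limma, adjusted p = 0.000232 and 0.00145). HOXC10 between HOXC11 and HOXC9 gave 0.01 ± 0.08 for BPQD and -0.08 ± 0.08 for TiO2 (SE; limma, adjusted p = 0.898 and 0.447), and its groups overlapped.

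Whether HOXC4 and HOXC6 passed depended on 1 library and on which libraries were fitted. HOXC6 had 8.66, 4.92 and 8.85 FPKM in BPQD libraries, 5.59, 6.90 and 6.44 FPKM in TiO2 libraries and 8.03, 8.80 and 7.80 FPKM in control libraries. HOXC4 had 2.86, 1.48 and 3.22 FPKM in BPQD libraries, 1.71, 1.79 and 1.71 FPKM in TiO2 libraries and 2.45, 2.83 and 2.62 FPKM in control libraries. BPQD replicate 2 was low for both genes, and neither passed in any comparison. Without that replicate, TiO2 against control was -0.41 for HOXC4 and -0.34 for HOXC6 (limma, adjusted p = 0.00209 and 0.0135), and BPQD against TiO2 was 0.56 and 0.42 (limma, adjusted p = 0.00111 and 0.00986). TiO2 against control also passed for both genes with the 6 libraries compared, which hold no BPQD library (limma, adjusted p = 0.00328 and 0.0252). Because the HOXC6, HOXC9, HOXC8, HOXC4 and HOXC5 gene models overlap in the table (HOXC6 runs chr12:53990624-54030823 and HOXC4 chr12:54016931-54056030), the division of fragments among them is uncertain.

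**Figure D3:**
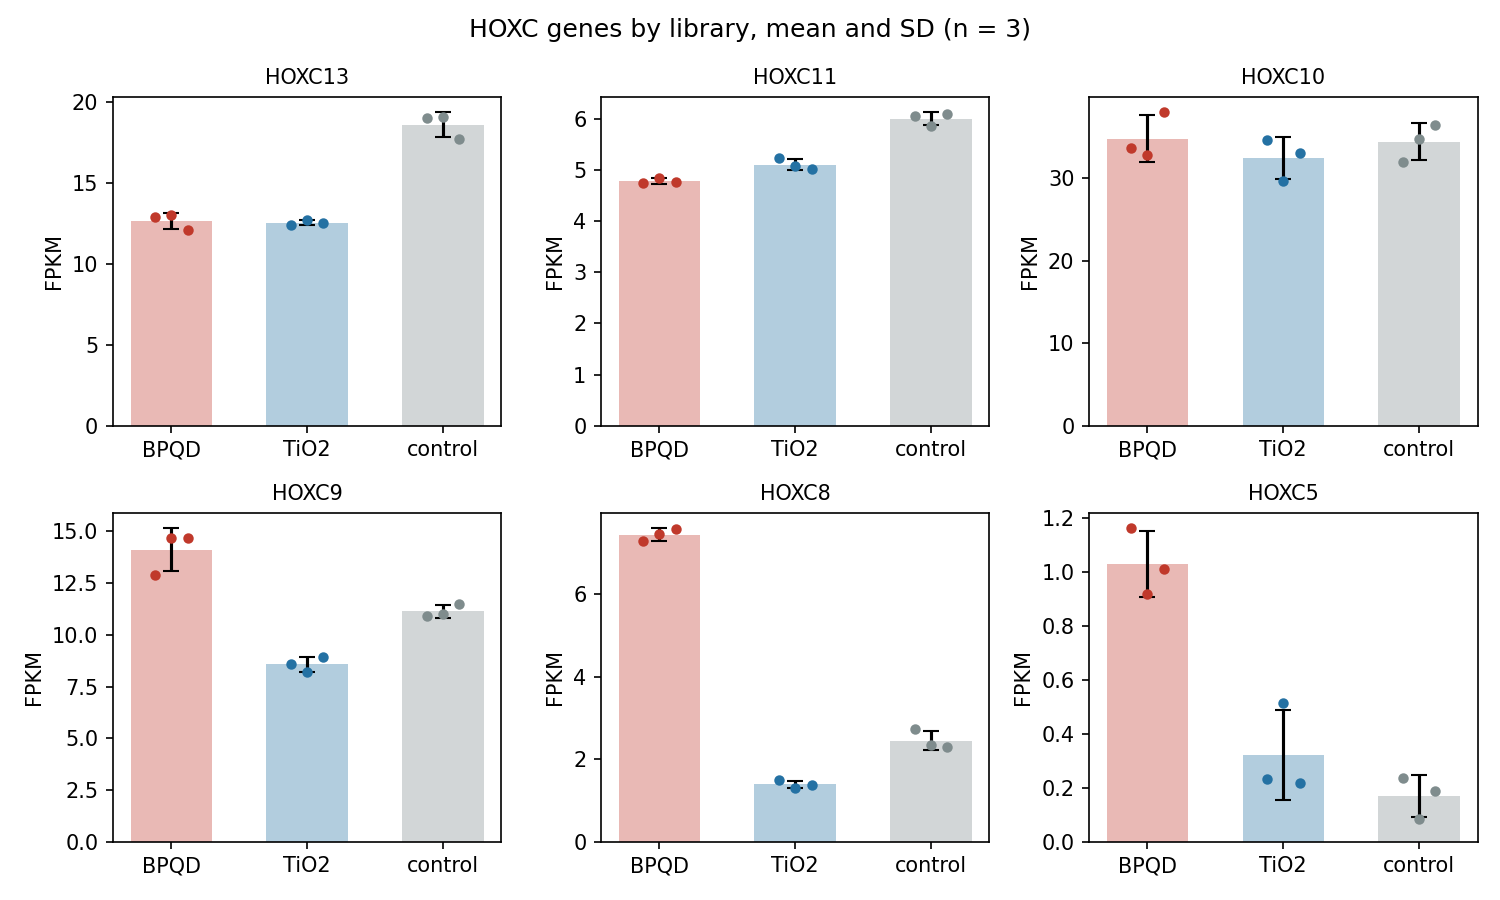
FPKM of 6 HOXC genes by group, bars for the mean, error bars for the SD and points for the 3 libraries of each group, linear axes from 0. HOXC13 and HOXC11 are lower in both exposed groups than in control, HOXC10 overlaps, HOXC9 and HOXC8 are highest in BPQD and lowest in TiO2, and HOXC5 is highest in BPQD.

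Of the HOXB genes, HOXB7 (ENSG00000260027, chr17:48607227-48633572) had 6.19, 5.61 and 5.72 FPKM in BPQD libraries, 7.17, 6.73 and 7.18 FPKM in TiO2 libraries and 7.71, 7.53 and 8.24 FPKM in control libraries. The groups did not overlap, with BPQD lowest. It fell by 0.37 ± 0.05 after BPQD on the log2 scale (SE; limma, adjusted p = 0.000607), while TiO2 against control was -0.14 ± 0.05 (SE; limma, adjusted p = 0.0554, and 0.0430 without BPQD replicate 1). BPQD lay 0.23 ± 0.05 below TiO2, a difference that passed (SE; limma, adjusted p = 0.00663).

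HOXB6 (ENSG00000108511, chr17:48595751-48604992) had 4.81, 4.57 and 4.96 FPKM in BPQD libraries, 3.95, 4.34 and 4.48 FPKM in TiO2 libraries and 5.16, 5.32 and 5.27 FPKM in control libraries. The control libraries were the highest and the TiO2 libraries the lowest. It fell by 0.25 ± 0.05 after TiO2 on the log2 scale (SE; limma, adjusted p = 0.00392), and BPQD against control was -0.11 ± 0.05 (SE; limma, adjusted p = 0.0791, and 0.0425 without TiO2 replicate 1). The difference of 0.14 between BPQD and TiO2 was called (limma, adjusted p = 0.0468) but lost in 11 of 16 alternatives, among them leaving out BPQD replicate 1 or 3, TiO2 replicate 1 or 2, or any control replicate (adjusted p = 0.0654 to 0.132).

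HOXB5 (ENSG00000120075, chr17:48591257-48593961) had 2.01, 1.59 and 1.85 FPKM in BPQD libraries, 1.50, 1.93 and 1.67 FPKM in TiO2 libraries and 2.11, 2.50 and 2.36 FPKM in control libraries. All 6 exposed libraries were below the 3 controls. The fall was 0.24 ± 0.08 after BPQD and 0.30 ± 0.08 after TiO2 on the log2 scale (SE; limma, adjusted p = 0.0470 and 0.0231). Both calls were fragile. The BPQD call was lost in 11 of 16 alternatives, including without BPQD replicate 2 or 3, TiO2 replicate 3 or control replicate 2 or 3 (adjusted p = 0.0671 to 0.136), and the TiO2 call in 6, including without TiO2 replicate 1 or 3 or control replicate 2 or 3 (adjusted p = 0.0623 to 0.0742).

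HOXB9 (ENSG00000170689, chr17:48621156-48626358) went the other way, with 3.02, 3.04 and 3.55 FPKM in BPQD libraries, 2.36, 2.12 and 2.59 FPKM in TiO2 libraries and 2.47, 2.27 and 2.70 FPKM in control libraries. The BPQD libraries were above all others, and the other groups overlapped. HOXB9 rose after BPQD by 0.27 ± 0.08 (SE; limma, adjusted p = 0.0224). The call did not hold once BPQD replicate 3, control replicate 1 or control replicate 2 was dropped (limma, adjusted p = 0.0664, 0.0564 and 0.0726), nor with no limit on low values (limma, adjusted p = 0.0522). BPQD was 0.32 ± 0.08 above TiO2 (SE; limma, adjusted p = 0.0123). Gene models overlap in HOXB as well. The HOXB7 model contains HOXB8 and HOXB9, and the HOXB3 model (chr17:48548870-48604912) contains HOXB5 and overlaps HOXB6. The division of fragments among these genes is therefore uncertain.

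In HOXA, HOXA11 (ENSG00000005073, chr7:27181510-27185223), a limb and uterine patterning gene, had 9.97, 9.82 and 9.59 FPKM in BPQD libraries, 10.4, 11.1 and 10.3 FPKM in TiO2 libraries and 11.4, 10.1 and 11.1 FPKM in control libraries. BPQD libraries lay just below the others. The difference from control was -0.14 ± 0.05 (SE; limma, adjusted p = 0.0466) and lost its call in 12 of 16 alternatives, including the TPM scale (adjusted p = 0.169), median centring (adjusted p = 0.101) and leaving out any BPQD replicate, TiO2 replicate 1 or 3, or control replicate 1 or 3 (adjusted p = 0.0598 to 0.136). TiO2 against control was -0.04 ± 0.05 (SE; limma, adjusted p = 0.576).

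HOXA5 (ENSG00000106004, chr7:27141052-27143681), which patterns the lung and other thoracic organs, had 2.87, 1.96 and 3.06 FPKM in BPQD libraries, 3.84, 3.80 and 4.35 FPKM in TiO2 libraries and 3.05, 3.46 and 3.26 FPKM in control libraries. TiO2 libraries were above all others, and BPQD and control overlapped. BPQD was 0.47 ± 0.12 below TiO2 on the log2 scale, and the call was lost without TiO2 replicate 3 (SE; limma, adjusted p = 0.0149, and 0.0509 without that replicate). Neither exposure passed against the control, at -0.24 ± 0.12 for BPQD and 0.23 ± 0.12 for TiO2 (SE; limma, adjusted p = 0.129 and 0.162, the second 0.0236 without BPQD replicate 2 and 0.0357 with the 6 libraries compared). HOXA4, HOXA7, HOXA9, HOXA10, HOXA13 and HOXB13 passed in none of the 3 comparisons, which does not show that they did not differ. Leaving out 1 library brought 3 of them past the threshold. HOXA9 passed for BPQD against TiO2 without control replicate 3 (limma, adjusted p = 0.0327) and for TiO2 against control without control replicate 2 (limma, adjusted p = 0.0449). HOXB13 passed for BPQD against control and against TiO2 without TiO2 replicate 2 (limma, adjusted p = 0.0274 and 0.0308), and HOXA4 for BPQD against control without control replicate 1 (limma, adjusted p = 0.0447). With the 6 libraries compared, HOXA9 passed for BPQD against TiO2 and HOXB13 for BPQD against control (limma, adjusted p = 0.0377 and 0.0438). Among the genes under the limit, a limit of 0.5 FPKM called HOXA3 lower after both exposures, at -0.19 ± 0.05 for BPQD and -0.17 ± 0.05 for TiO2 (SE; limma, adjusted p = 0.0167 and 0.0278), where 40.5% and 33.3% of 14390 genes passed for BPQD and TiO2. The HOXA3 model (chr7:27106184-27152581) contains HOXA4, HOXA5 and HOXA6, so the division of fragments among these genes is uncertain.

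Some noncoding RNAs of the HOXC cluster were, like HOXC8 and HOXC9, highest in BPQD and lowest in TiO2 libraries. HOXC-AS1 (chr12:53999022-54000010, minus strand), antisense to HOXC9, had 4.68, 4.41 and 4.65 FPKM in BPQD libraries, 2.45, 2.88 and 2.36 FPKM in TiO2 libraries and 3.41, 3.02 and 3.12 FPKM in control libraries. It rose after BPQD by 0.42 ± 0.06 (SE; limma, adjusted p = 0.00131). TiO2 against control was -0.23 ± 0.06 (SE; limma, adjusted p = 0.0220), a call lost in 6 of 16 alternatives. These were leaving out TiO2 replicate 1 or 3 or control replicate 1 (limma, adjusted p = 0.0673, 0.0681 and 0.0689), no limit on low values, the replicate block and the 6 libraries compared (limma, adjusted p = 0.0595, 0.0513 and 0.0511).

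HOXC-AS2 (chr12:53993810-53996785, minus strand) had 4.82, 5.26 and 5.06 FPKM in BPQD libraries, 2.13, 3.03 and 2.57 FPKM in TiO2 libraries and 3.73, 3.77 and 3.94 FPKM in control libraries. It rose after BPQD by 0.33 ± 0.08 and fell by 0.44 ± 0.08 after TiO2 (SE; limma, adjusted p = 0.0156, or 0.0507 without BPQD replicate 2, and 0.00539). The files do not state strand-aware counting, so reads of these antisense RNAs and of the HOXC9 and HOXC6 models they overlap cannot be told apart.

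A gene listed as AC012531 (ENSG00000260597, chr12:54019910-54022589), inside the HOXC6 and HOXC4 models, was chosen after its values were seen. It had 5.85, 5.65 and 5.93 FPKM in BPQD libraries, 2.31, 2.38 and 2.36 FPKM in TiO2 libraries and 3.81, 3.50 and 3.75 FPKM in control libraries. The 3 groups were apart. The log2 fold changes were 0.54 ± 0.04 for BPQD and -0.48 ± 0.04 for TiO2 against control (SE; limma, adjusted p = 3.16e-05 and 7.29e-05).

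HOTAIR (chr12:53962308-53974956, minus strand), the HOXC noncoding RNA known to bind Polycomb repressive complex components, had 4.84, 5.03 and 5.73 FPKM in BPQD libraries, 4.68, 3.20 and 4.48 FPKM in TiO2 libraries and 6.28, 6.65 and 6.28 FPKM in control libraries. Both exposed groups were below the control. HOTAIR fell by 0.54 ± 0.11 after TiO2 (SE; limma, adjusted p = 0.00723), and BPQD against control was -0.26 ± 0.11 (SE; limma, adjusted p = 0.101, but 0.0124 without TiO2 replicate 2 and 0.0217 with the 6 libraries compared). HOXC13-AS fell by 0.51 ± 0.07 after TiO2 (SE; limma, adjusted p = 0.000792). Its BPQD value was -0.23 ± 0.07 (SE; limma, adjusted p = 0.0261), and dropping any BPQD replicate or control replicate 2 took it past the threshold (limma, adjusted p = 0.0550 to 0.0712). The HOXC13-AS call after BPQD was also lost with no limit on low values and in TPM (limma, adjusted p = 0.0595 and 0.0615).

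Of the 24 HOX cluster noncoding RNAs listed, 9 were tested. After BPQD 2 were higher and 2 lower, the fourth being HOTAIRM1 of HOXA at -0.27 ± 0.07 (SE; limma, adjusted p = 0.0148, and 0.0502 without BPQD replicate 1, control replicate 1 or control replicate 3). After TiO2 0 were higher and 4 lower by limma, and the counts were the same at an unadjusted p under 0.05. BPQD exceeded TiO2 in 4, namely HOXC-AS2 at 0.76, HOXC-AS1 at 0.65, HOXC13-AS at 0.29 and HOXC-AS3 at 0.23 (limma, adjusted p = 0.000355, 0.000195, 0.0111 and 0.0109). In each of the 3 comparisons 44.4% of the 9 were called, against 44.0%, 37.7% and 37.6% of all genes.

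Among the cofactors and regulators of HOX genes, 7 TALE homeobox cofactors were tested. After BPQD 0 were higher and 1 lower by limma (0 and 2 at an unadjusted p under 0.05), and after TiO2 1 was higher and 1 lower, which is 14.3% and 28.6% against 44.0% and 37.7% of all genes. MEIS3 averaged 0.950 ± 0.0631 FPKM in BPQD libraries, 0.932 ± 0.0938 FPKM in TiO2 libraries and 1.52 ± 0.102 FPKM in control libraries (SD, n = 3 each). Its mean over the 9 libraries reaches the limit of 1 FPKM only through the control libraries. No test is therefore given for it, although the lower calls counted above are those of MEIS3. MEIS2 was higher after TiO2 at 0.13 ± 0.04 (SE; limma, adjusted p = 0.0413), a call lost in 11 of 16 alternatives, which include leaving out any library other than control replicate 2 (adjusted p = 0.0577 to 0.116). PBX2, chosen after its values were seen, had 10.5, 10.7 and 11.3 FPKM in BPQD libraries, 11.3, 10.5 and 10.7 FPKM in TiO2 libraries and 12.7, 12.9 and 22.0 FPKM in control libraries. All exposed libraries were below the controls, of which replicate 3 stood far above the others. BPQD and TiO2 against control were -0.47 ± 0.18 each (SE; limma, adjusted p = 0.0701 and 0.0798). Both were -0.22 and passed without control replicate 3 (limma, adjusted p = 0.00670 and 0.00890), and BPQD was -0.60 without control replicate 1 (limma, adjusted p = 0.0444). Between BPQD and TiO2, 0 of the 7 passed by limma and 0 had an unadjusted p under 0.05. The median size of change was 0.04 for BPQD and 0.07 for TiO2, against 0.17 and 0.15 over all genes.

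Of 16 Trithorax and related activators tested, BPQD raised 5 and lowered 3, TiO2 raised 2 and lowered 9, and 8 were higher and 1 lower in BPQD than in TiO2. For BPQD these are 8 of 16, against 44.0% of all genes. The shares for TiO2, 68.8%, and for BPQD against TiO2, 56.2%, compare with 37.7% and 37.6% of all genes. The histone H3 lysine 4 methyltransferase KMT2D averaged 9.17 ± 0.0564 FPKM in TiO2 libraries and 13.0 ± 0.251 FPKM in control libraries (SD, n = 3 each). It fell by 0.46 ± 0.02 after TiO2 (SE; limma, adjusted p = 1.29e-05). MLLT1, DOT1L and KMT2B followed at -0.43, -0.38 and -0.30 after TiO2. KDM6A, a demethylase that removes the Polycomb mark, averaged 5.02 ± 0.0990 FPKM in BPQD libraries and 3.30 ± 0.171 FPKM in control libraries (SD, n = 3 each) and rose by 0.48 ± 0.04. MLLT1 and MEN1 were lower after BPQD at -0.29 and -0.28, and KDM6B at -0.21. The KDM6B call was lost in 7 of 16 alternatives. These were no limit on low values, TPM, the replicate block, and leaving out BPQD replicate 1 or 2 or control replicate 1 or 3 (limma, adjusted p = 0.0545 to 0.0760). MLLT1, MEN1 and KDM6B were also lower after TiO2, MEN1 at -0.26 (limma, adjusted p = 0.00524) and KDM6B at -0.23 (limma, adjusted p = 0.0170, a call lost in 4 of 16 alternatives, each without 1 TiO2 or control library). RBBP5, a core subunit of the lysine 4 methyltransferase complexes that was chosen after its values were seen, was higher after both at 0.13 and 0.12 (limma, adjusted p = 0.00716 and 0.0104). Between BPQD and TiO2 the leading genes were KMT2D, KMT2C, KDM6A and DOT1L at 0.52, 0.44, 0.40 and 0.35.

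Of 26 Polycomb genes tested, BPQD raised 5 and lowered 7, TiO2 raised 3 and lowered 7, and 7 were higher and 3 lower in BPQD than in TiO2. The shares called, 46.2%, 38.5% and 38.5%, lay near the 44.0%, 37.7% and 37.6% of all genes. MTF2, a PRC2 accessory subunit, averaged 7.33 ± 1.36 FPKM in BPQD libraries and 5.28 ± 0.0617 FPKM in control libraries (SD, n = 3 each), a rise of 0.40 ± 0.10 (SE; limma, adjusted p = 0.0133). CBX2, a reader of the Polycomb mark, fell by 0.28 ± 0.04 after BPQD and by 0.34 ± 0.04 after TiO2 (SE; limma, adjusted p = 0.000699 and 0.000374). PHC1 and PHF1 were lower after BPQD at -0.26 and -0.27, PHF1 losing its call without BPQD replicate 2 or control replicate 1 (limma, adjusted p = 0.0506 and 0.0512). After TiO2, CBX6 and PHF19 were lower at -0.32 and -0.28, and BMI1, a PRC1 subunit, higher at 0.27. BPQD exceeded TiO2 for AEBP2, PHC3 and CBX6 at 0.37, 0.30 and 0.24, and was below it for BMI1 at -0.23.

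Retinoic acid is a classic inducer of HOX clusters. Of 7 retinoid genes tested, 3 fell after each exposure and 0 rose by limma, and at an unadjusted p under 0.05 the counts were 5 lower for BPQD, 4 lower for TiO2 and 0 higher for both. The share called was 42.9% after each exposure, near the 44.0% and 37.7% of all genes, while 23.4% and 20.5% of all genes were called lower. Between BPQD and TiO2 57.1% were called, against 37.6% of all genes. DHRS3, a retinaldehyde reductase that is itself induced by retinoic acid, averaged 2.40 ± 0.407 FPKM in BPQD libraries and 5.45 ± 0.228 FPKM in control libraries (SD, n = 3 each), a fall of 0.93 ± 0.08 (SE; limma, adjusted p = 0.000115). The receptor RARG and the retinaldehyde dehydrogenase ALDH1A3 were lower after BPQD at -0.47 and -0.28 (limma, adjusted p = 0.000974 and 0.0111). After TiO2 the receptors RARA, RXRB and RARG were lower at -0.27, -0.25 and -0.24. RARG lost its call with no limit on low values and without TiO2 replicate 2 or 3 or control replicate 1 or 3 (limma, adjusted p = 0.0629 to 0.0790). BPQD was below TiO2 for DHRS3, ALDH1A3 and RARG at -0.72, -0.30 and -0.23 and above it for RXRB at 0.32. Dropping BPQD replicate 1 or 2, or TiO2 replicate 1 or 3, ended the RARG call (limma, adjusted p = 0.0693 to 0.0875). So did no limit on low values and TPM (limma, adjusted p = 0.0575 and 0.0501).

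Of the genes that flank the clusters or act upstream of them, 9 of 20 were tested. BPQD raised 2 and lowered 3, TiO2 raised 2 and lowered 2, and 3 were higher and 3 lower in BPQD than in TiO2. These are 55.6%, 44.4% and 66.7% of the 9, against 44.0%, 37.7% and 37.6% of all genes. CALCOCO1, beside HOXC13 on chromosome 12, fell by 0.33 ± 0.04 after BPQD and by 0.32 ± 0.04 after TiO2 (SE; limma, adjusted p = 0.000426 and 0.000607). SNX10 on the HOXA side averaged 6.68 ± 0.280 FPKM in TiO2 libraries and 4.11 ± 0.0447 FPKM in control libraries (SD, n = 3 each), a rise of 0.59 ± 0.04, and SKAP2 rose by 0.20 ± 0.05. MTX2 near HOXD rose after BPQD by 0.35 ± 0.06. MEOX1 was lower after BPQD at -0.70 ± 0.18, and did not pass once BPQD replicate 1 or control replicate 2 was dropped (SE; limma, adjusted p = 0.0160, 0.0504 and 0.0520). LNPK after BPQD at -0.18 and ATP5MC1 after TiO2 at -0.11 were also called. LNPK was lost in 10 of 16 alternatives, among them without BPQD replicate 2 or 3, TiO2 replicate 1 or any control replicate (limma, adjusted p = 0.0562 to 0.0934). ATP5MC1 was lost in 7, among them without any TiO2 replicate or control replicate 1 or 2 (limma, adjusted p = 0.0623 to 0.0975). BPQD minus TiO2 was -0.63 for SNX10, -0.31 for LNPK, -0.27 for SKAP2 and 0.30 for MTX2.

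m6A is the most abundant internal methylation of messenger RNA and is read by YTH domain and other proteins. The peak lists are the authors' own comparison of immunoprecipitated with input RNA, given per peak as a log2 fold change of m6A enrichment, exposed over control by the tables' titles. They hold no m6A value per library, so no spread can be set beside the enrichment. HOX genes had 36 peaks in 22 genes in the authors' deposited table for BPQD, and 17 of them, 47.2%, had p under 0.05, against 64.8% of all 14903 peaks. In the authors' deposited table for TiO2 they had 31 peaks in 19 genes, of which 17, or 54.8%, passed, against 64.1% of all 12888 peaks. The HOX share was thus below the background in both. Higher enrichment was listed for 9 and lower for 8 of the called peaks in the authors' deposited table for BPQD, and for 11 and 6 in that for TiO2. Over all peaks, 37.7% were called higher and 27.1% lower in the authors' deposited table for BPQD, and 40.3% and 23.8% in that for TiO2. Under p below 0.01 and under FDR below 0.05, 11 and 11 HOX peaks stayed called in the authors' deposited table for BPQD, where 44.4% and 43.7% of all peaks did, and 10 and 10 in that for TiO2, where 42.6% and 40.0% did. The 2 tables share their control libraries.

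HOX peaks were often annotated to 5′ UTRs. The authors' deposited table for BPQD placed 13 of the 36, or 36.1%, there, against 25.1% of all peaks, and that for TiO2 14 of 31, or 45.2%, against 26.4%. Peaks over 5000 bases made up 25.0% and 19.4% of HOX peaks and 14.8% and 17.4% of all peaks in the authors' deposited tables for BPQD and TiO2. The widest HOX peak, 48566 bases at chr12:53985845-54034410, was assigned to HOXC8 and overlapped 6 HOXC genes, so its value belongs to no single one. It was lower by the same amount in both of the authors' deposited tables, -0.22 for BPQD and -0.22 for TiO2 (authors' p = 0.00339 and 0.00275).

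The strongest HOX peak by p lay in HOXC. At chr12:54021279-54021636, assigned to HOXC6 but annotated to the single exon of ENSG00000260597, enrichment was 2.01 higher in the authors' deposited table for BPQD (authors' p = 3.98e-24). The input RNA of that gene also rose after BPQD, as given above, and no peak with these coordinates was among the HOX peaks of the TiO2 table. The other HOXC6 peak, chr12:54017272-54030793, starts downstream of the promoter window printed above and was 0.29 higher in the authors' deposited table for BPQD (authors' p = 5.01e-14). Broad peaks from almost the same start, chr12:54017287-54034446 and chr12:54017288-54047778, assigned to HOXC5, were 0.17 and 0.16 in the authors' deposited table for BPQD without passing (authors' p = 0.0977 and 0.116). Both were 0.48 higher in the authors' deposited table for TiO2 (authors' p = 5.37e-05 and 9.77e-05).

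The HOXC8 3′ UTR peaks and a peak that spans HOXC9 were higher after both exposures, although the RNA of both genes rose after BPQD and fell after TiO2. The 48566-base peak given above, which also spans both genes, was lower in both of the authors' deposited tables, at -0.22. At the HOXC8 3′ UTR, chr12:54009462-54011785 was 0.51 higher in the authors' deposited table for BPQD (authors' p = 5.37e-08). There, chr12:54009701-54011755 was 0.48 higher in the authors' deposited table for TiO2 (authors' p = 0.000263). The peak that spans HOXC9, chr12:53994895-54003337, was 0.30 higher in the authors' deposited table for BPQD and 0.19 higher in that for TiO2 (authors' p = 1.00e-12 and 5.13e-05). These HOXC8 and HOXC9 peaks also lie within the HOXC6 model, and the HOXC9 peak covers HOXC-AS1, so their values may not belong to a single gene.

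HOXC10 and HOXC13 completed the cluster. The HOXC10 exon peak chr12:53985860-53985977 was -0.25 and -0.23 in the authors' deposited tables for BPQD and TiO2 (authors' p = 0.0123 and 0.0219). Its 3′ UTR peak chr12:53990099-53990279 was -0.31 in the authors' deposited table for TiO2 (authors' p = 0.00120) and -0.15 without passing in that for BPQD (authors' p = 0.0741). HOXC13, lower in RNA after both, had a 3′ UTR peak, chr12:53945113-53946395, 0.11 higher in the authors' deposited table for BPQD (authors' p = 0.00302). Its 5′ UTR peak, chr12:53938831-53939159, was 0.60 higher in the authors' deposited table for TiO2 (authors' p = 0.00123). HOXC11 at chr12:53973126-53976385 was at 0.10 and HOXC4 at chr12:54055673-54056030 at -0.37 in the authors' deposited table for TiO2 (authors' p = 0.0234 and 0.0380).

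**Figure D4:**
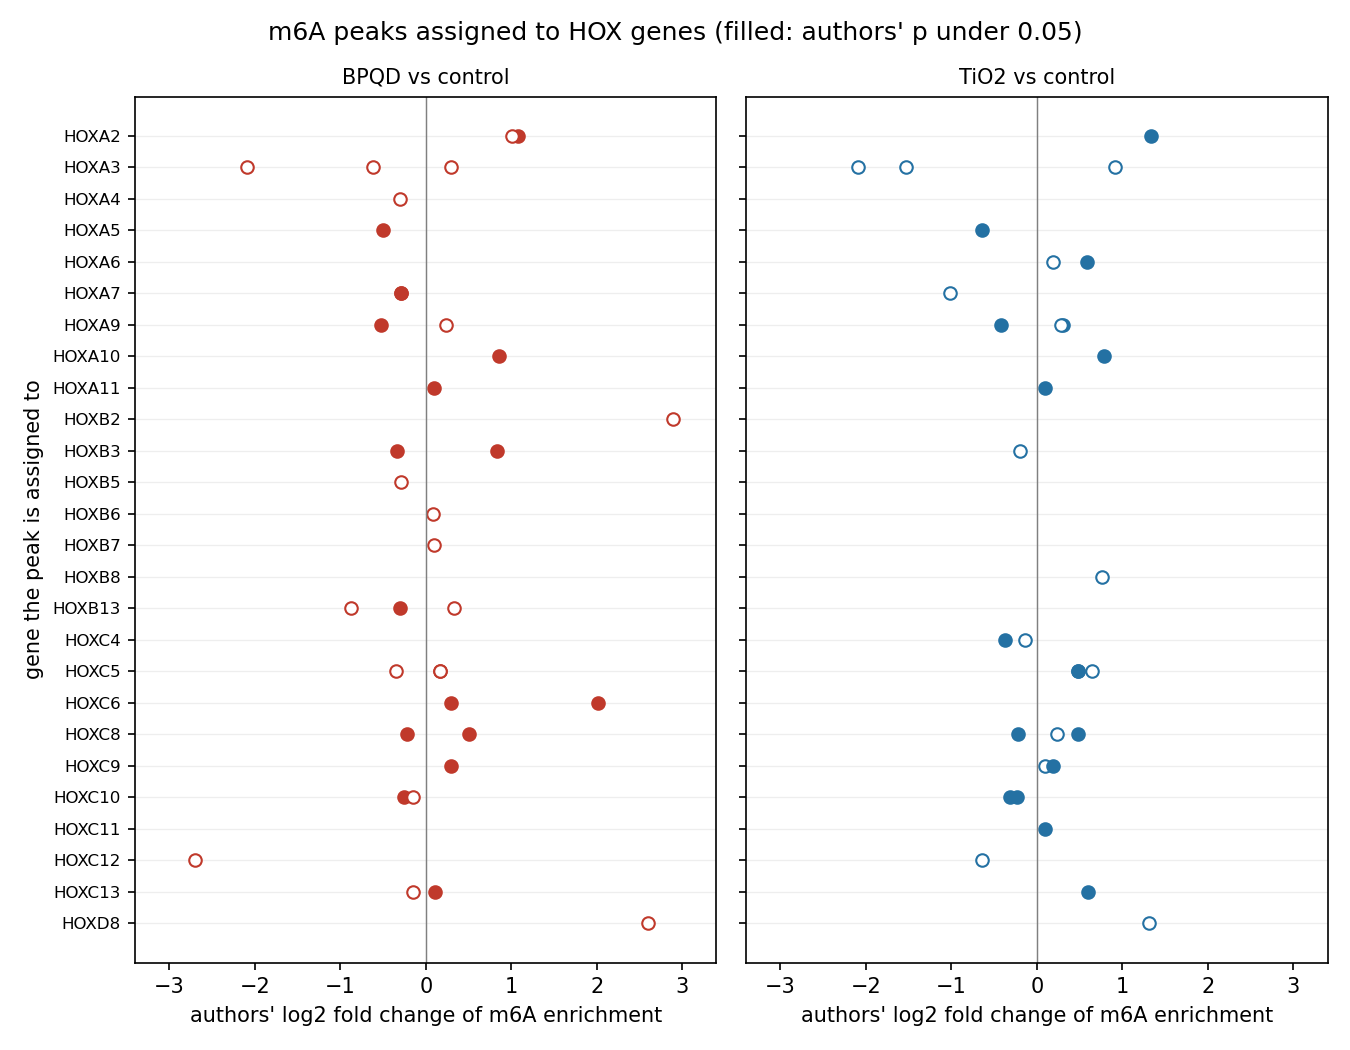
Authors' log2 fold change of m6A enrichment for each peak assigned to a HOX gene, BPQD table on the left and TiO2 table on the right, 1 point per peak, filled for the authors' p under 0.05. HOXC6 holds the highest filled BPQD point, at 2.01, and HOXA5 is lower in both tables, at -0.50 and -0.64.

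HOXA peaks were found for nearly every gene of the cluster. The HOXA5 3′ UTR was lower after both, with chr7:27141704-27143088 at -0.50 in the authors' deposited table for BPQD and chr7:27141734-27143088 at -0.64 in that for TiO2 (authors' p = 0.00151 and 2.00e-05). The HOXA11 peak, chr7:27181750-27185223, was 0.09 higher for BPQD and 0.10 higher for TiO2 in the authors' deposited tables (authors' p = 0.00912 and 0.00380), and its 5′ end falls in the promoter window printed above. HOXA10 and HOXA2 were higher after both. The HOXA10 exon peaks, chr7:27172841-27173496 for BPQD and chr7:27172721-27173496 for TiO2, were at 0.85 and 0.79 in the authors' deposited tables (authors' p = 0.0324 and 0.00676). HOXA2, a gene at 0.101 to 0.341 FPKM, had 1.08 at chr7:27101063-27101418 in the authors' deposited table for BPQD and 1.34 at chr7:27100738-27100945 in that for TiO2 (authors' p = 0.0372 and 0.0145).

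HOXA9 was mixed. Its broad peaks, chr7:27173826-27179691 for BPQD and chr7:27169311-27174734 for TiO2, which also cover HOXA10 and the second also miR-196b, were at -0.52 and -0.42 in the authors' deposited tables (authors' p = 0.0389 and 0.0117). Its 3′ UTR peak chr7:27163419-27164960 was 0.31 higher in the authors' deposited table for TiO2 (authors' p = 0.0135). HOXA7 had overlapping 3′ UTR peaks, chr7:27154398-27156200 and chr7:27154399-27155478, both at -0.29 in the authors' deposited table for BPQD (authors' p = 0.00129 and 0.00120). HOXA6 at chr7:27147771-27150603 was 0.59 higher in the authors' deposited table for TiO2 (authors' p = 0.0398).

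In HOXB, called peaks were listed for BPQD and none for TiO2, for which fewer HOXB peaks were listed at all. HOXB3 had -0.34 at chr17:48550098-48552110 and 0.83 at chr17:48575895-48576881 in the authors' deposited table for BPQD (authors' p = 0.0162 and 0.0132). HOXB13 had -0.30 at chr17:48726347-48728043 in the authors' deposited table for BPQD (authors' p = 0.00741). In the authors' deposited table for TiO2 the first HOXB3 peak was at -0.20 (authors' p = 0.0933), and a HOXB8 peak, chr17:48611583-48613479, was at 0.76, just short of passing (authors' p = 0.0513). A difference between the exposures was not tested for these peaks. Over both tables, 9 of the 35 HOX genes had no peak.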

How the data were processed

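The FPKM values were deposited by the authors for 9 input libraries. HISAT2 and StringTie 1.3.0 are listed, without roles, in the submitters' processing notes, which name the mouse build mm10. Gene IDs and coordinates in the files are human: all 35 HOX genes overlapped their RefSeq GRCh38.p14 positions, so coordinates are given as GRCh38. For each m6A peak the authors deposited a p-value, a log2 fold change of enrichment and a score, the log10 of the FDR. Which peak caller was run is not given in the sources used here. A further 12 per-library FPKM columns in the peak tables were not used. Limma 3.58.1 (R 4.3.3, trend, two-sided, Benjamini-Hochberg over the 12224 genes whose mean reached 1 FPKM, threshold 0.05) was fitted to log2(FPKM + 1), pseudocount 1, in all 9 libraries and tested on simulated data. Alternatives were a pseudocount of 0.1, no limit on low values, a limit of 0.5 FPKM, TPM, median centring, the 6 libraries compared, a replicate block and leaving out each library. For peaks they were p under 0.01, FDR under 0.05 and assignment by an overlap of at least 1 base with a HOX gene. The members, gene lists and tests were chosen with earlier results of these data known. Values in every library are given for HOX genes called in any comparison and for the highest gene of each cluster. From each gene list, up to 4 called members with the largest change per comparison are named, and all HOX peaks with the authors' p under 0.05. HOXC4, HOXC5, HOXC6, the gene AC012531, PBX2, RBBP5 and HOXA3 were added after their values were seen. The values of 1 HOX gene are not reported here. Promoter and microRNA sequences are from RefSeq GRCh38.p14.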

Additional observations from a re-analysis of the deposited data

Results flagged for a closer look

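HOXC8 and HOXC9 had effects of opposite sign after the 2 exposures, and the direct contrast of BPQD with TiO2 passed for both. The difference was 1.82 for HOXC8 (limma, adjusted p = 1.78e-06) and 0.66 for HOXC9 (limma, adjusted p = 8.39e-05) on the log2(FPKM + 1) scale. In each gene all 3 BPQD libraries lay above and all 3 TiO2 libraries below the 3 control libraries. The exposures differed in dose as well as in material, and these cannot be told apart.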

How the results depend on the processing

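Of the 20 calls on HOX genes over the 3 comparisons, 14 held under every alternative and 0 changed direction. The calls lost were those of HOXA11, HOXB5 (against both), HOXB6, HOXB9 and HOXA5 given in the report. The count of HOX genes called for BPQD against control, 8, was 5 without BPQD replicate 3, and 5 to 9 when 1 library was left out. For TiO2 against control it was 5 to 9 and for BPQD against TiO2 5 to 8, against 6 each. At p under 0.01 and at an FDR under 0.05, HOX peaks called numbered 11 and 11 for BPQD and 10 and 10 for TiO2, against 17 each. By overlap with a HOX gene 20 of 39 and 18 of 36 were called. Calls over all genes for BPQD against TiO2 were 2821 higher and 1842 lower in TPM, against 2323 and 2273 in FPKM. Sign changes occurred only in results that had not passed. HOXA13 after BPQD was 0.04 in TPM and 0.02 with median centring, and HOXA7 after TiO2 was -0.01 with a pseudocount of 0.1. With 1 library left out, BPQD against control ranged from -0.08 to 0.14 for HOXA10, -0.12 to 0.17 for HOXA13, -0.13 to 0.02 for HOXA7, -0.06 to 0.14 for HOXA9, -0.05 to 0.06 for HOXC10, -0.23 to 0.15 for HOXC4 and -0.28 to 0.08 for HOXC6. TiO2 against control ranged from -0.08 to 0.14 for HOXA10, -0.17 to 0.07 for HOXA4, -0.15 to 0.21 for HOXA7 and -0.11 to 0.04 for HOXB13. BPQD against TiO2 ranged from -0.07 to 0.08 for HOXA10, -0.26 to 0.10 for HOXA7 and -0.01 to 0.04 for HOXC13. The causes were not tested. Same-numbered libraries did not deviate together over all genes tested (correlations -0.083 to 0.0733). The labels do not say whether the numbers pair libraries. The check cannot decide it, because a correlation over all genes can miss pairing that shows in single genes. With the replicate block 6 HOX genes were called for BPQD against control, 5 for TiO2 against control and 5 for the 2 exposures against each other. Read depth is unknown, which limits the genes below 1 FPKM most.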
